A study of Mus musculus with 4 samples.

Results

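The genes described here encode the classical guidance cues and their receptors, that is the ephrins, Eph receptors, semaphorins, plexins, neuropilins, Slits and Robos. They were measured in OP9 cells, a mouse stromal cell line, with and without a retroviral Wnt3A gene. Members were chosen by name only. Every non-control probe whose gene name in the array annotation, or whose current symbol found through its transcript accession, fell in one of these families was taken. This gave 59 genes with 110 probes, of 27598 gene names with 41174 probes on the array. A total of 55 member genes with 90 probes were bright enough to be tested. Wnt3A cells (2 arrays) carried the vector LZRS-IRES-GFP with the Wnt3A gene, and Control cells (2 arrays) carried LZRS-IRES-GFP alone, so both groups shared the vector, its GFP marker and the parent line. The labels do not give the time after gene transfer, whether cells were sorted or cloned, or whether the replicates of a group were separate cultures, so p-values measure only the spread between these samples. RNA was amplified by global PCR and hybridised to 1-colour Agilent arrays, with 1 array per sample. With so few arrays, their number sets how precise a value can be.

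Ephrins are membrane-bound ligands of the Eph receptor tyrosine kinases, and both partners can signal when cells touch. Class 3 semaphorins are secreted and bind neuropilins, which form receptor complexes with plexins, while the membrane-bound semaphorin classes mostly bind plexins directly. Slits are secreted proteins that repel cells through Robo receptors. These systems were first described in axon guidance and also act on adhesion and movement of cells in vessels, bone and bone marrow stroma.

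Values below are log2 intensities of the deposited table relative to the 75th percentile of their own array, so that 0 is the 75th percentile. They compare arrays for 1 probe and do not rank different probes. A detection floor, estimated from the scanner files and lenient, lay between -6.49 and -6.07 on this scale. Within a group the arrays correlated at 0.935 (Wnt3A) and 0.930 (Control) over the tested probes, and between the groups at 0.876 to 0.885. The single Wnt3a probe, which starts at base 2599 of its transcript, had table intensities of 0.0112 and 0.123 on the Wnt3A arrays and 0.0151 and 0.0134 on the Control arrays. It passed the floor only on the Wnt3A replicate 2 array, so it does not check the label of the other, and whether the transgene holds the probe's target is not given in the sources used here. All 11 stromal marker genes passed the floor on all 4 arrays, with a summed linear level of 285 and 307 on the Wnt3A arrays and 102 and 148 on the Control arrays. The collagens Col1a1, Col1a2 and Col3a1 carried this difference, and without them the 8 others summed to 18.5 and 17.6 on the Wnt3A arrays and 39.1 and 53.7 on the Control arrays. Pdgfra (log2 change -2.25), Vcam1 (-1.61), Cxcl12 (-1.44) and Ly6a (-1.38) were lower on both Wnt3A arrays than on both Control arrays, and none of the 11 passed an adjusted p of 0.05 (limma). Of 8 macrophage and myeloid markers, 8 passed the floor on all 4 arrays, with sums of 2.21 and 1.90 on the Wnt3A arrays and 2.51 and 1.89 on the Control arrays. Of 8 endothelial markers, 4 did so, and Tek and Kdr were below the floor on every array. The endothelial sums were 2.07 and 1.99 in Wnt3A and 1.66 and 1.72 in Control. Neuronal and glial markers, of which 6 of 8 passed on all 4 arrays, summed to 5.13 and 5.08 in Wnt3A and 16.2 and 16.7 in Control. Rbfox3, a neuronal splicing factor, alone read 0.55 and 0.71 (log2) in Wnt3A and 3.62 and 3.81 in Control. Without Rbfox3 the other 7 summed to 3.67 and 3.44 in Wnt3A and 3.86 and 2.73 in Control, so those groups overlapped. The part of these marker differences in the results below was not tested, and in a bulk sample fewer cells of a type and less RNA per cell cannot be told apart.

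No member gene passed an adjusted p of 0.05 when each gene was read from the brightest of its tested (kept) probes (limma with Benjamini-Hochberg adjustment over all tested probes), while 0.643% of all 22860 tested genes did. Robo2 came closest, with an adjusted p of 0.0521. At an unadjusted p under 0.05 there were 18 of 55 members, a share of 32.7% beside 12.7% of all tested genes. Of these, 10 were higher in Wnt3A cells, where 6.32% of all tested genes were, and 8 were lower, where 6.34% were. The members were listed with earlier results of these data known, so no test of these shares was made. Members above the floor on all 4 arrays numbered 51, and 16 of these had an unadjusted p under 0.05, a share of 31.4% beside 10.8% for all such genes. A log2 change over 2 in size was found for 10 members, against 6.16% of all tested genes, and for Sema3a and Efna2 among them it was taken against Control arrays below the floor. The groups did not overlap for 27 members, a share of 49.1% beside 45.2% of all tested genes, which is close to the background. The median log2 change of the members was -0.07, and that of all tested genes was -0.01, so the members were not shifted one way.

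**Figure D1:**
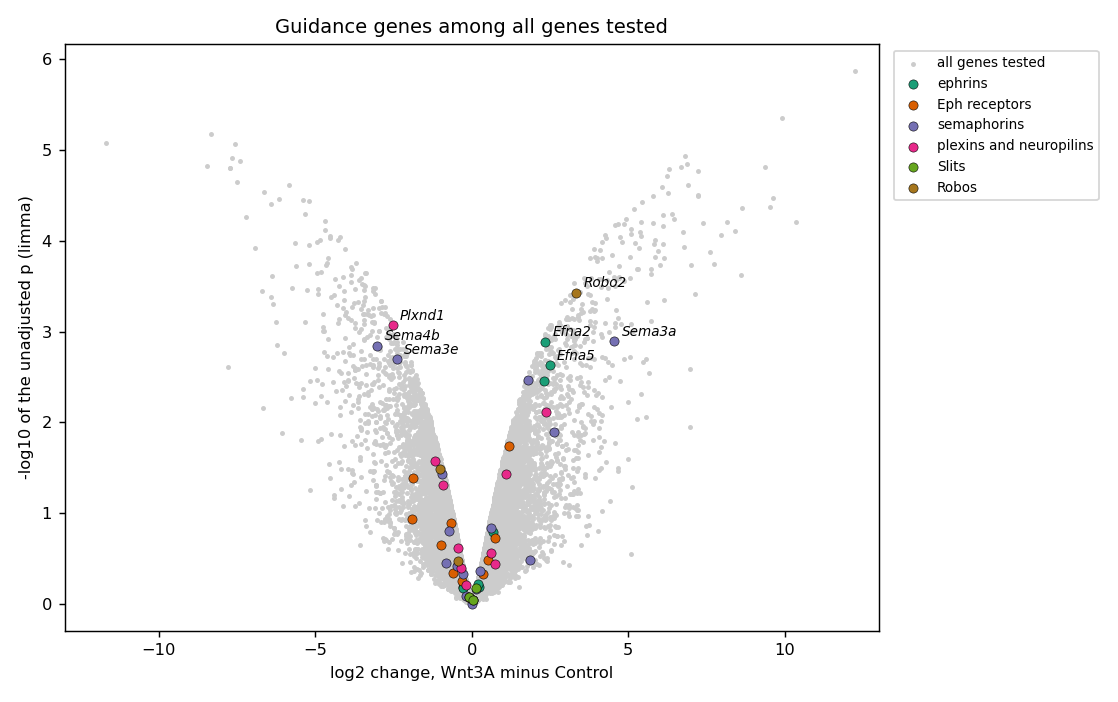
Log2 change of each tested gene, Wnt3A minus Control (x), against the -log10 of its unadjusted limma p (y). Grey points are all 22860 tested genes and coloured points are the 55 members by family, with Robo2 highest at a log2 change of 3.34 and Sema3a farthest to the right at 4.56, a value taken against Control arrays below the floor.

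Read by probe, 4 of 90 member probes passed, where 0.679% of all tested probes did. Of these, 2 belong to Robo2 and 1 to Sema6a, all higher in Wnt3A cells, a direction taken by 0.424% of all tested probes. The other, lower in Wnt3A cells as 0.255% of all tested probes were, belongs to Robo1. Each of these 4 probes was below the floor on both arrays of one group. With any single array dropped, each kept the direction of its log2 change. No gene of the whole table passed in that setting, so it could not single out these probes. Without the filter on dim probes 2 of the 4 passed, 1 of Robo2 and that of Sema6a. The families differed in their counts but every family had members on both sides of 0. Of the 8 ephrins 6 had a positive change, and 3 of these and no lower one had an unadjusted p under 0.05. Among 12 tested Eph receptors 5 had a positive change, with 1 higher and 1 lower at that mark. Among 18 tested semaphorins 9 had a positive change, with 3 higher and 3 lower at the mark. Of 11 plexins and neuropilins 4 had a positive change, with 2 higher and 3 lower at it. None of the 3 Slits reached it, and of the 3 Robos 1 was higher and 1 lower at it.

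**Figure D2:**
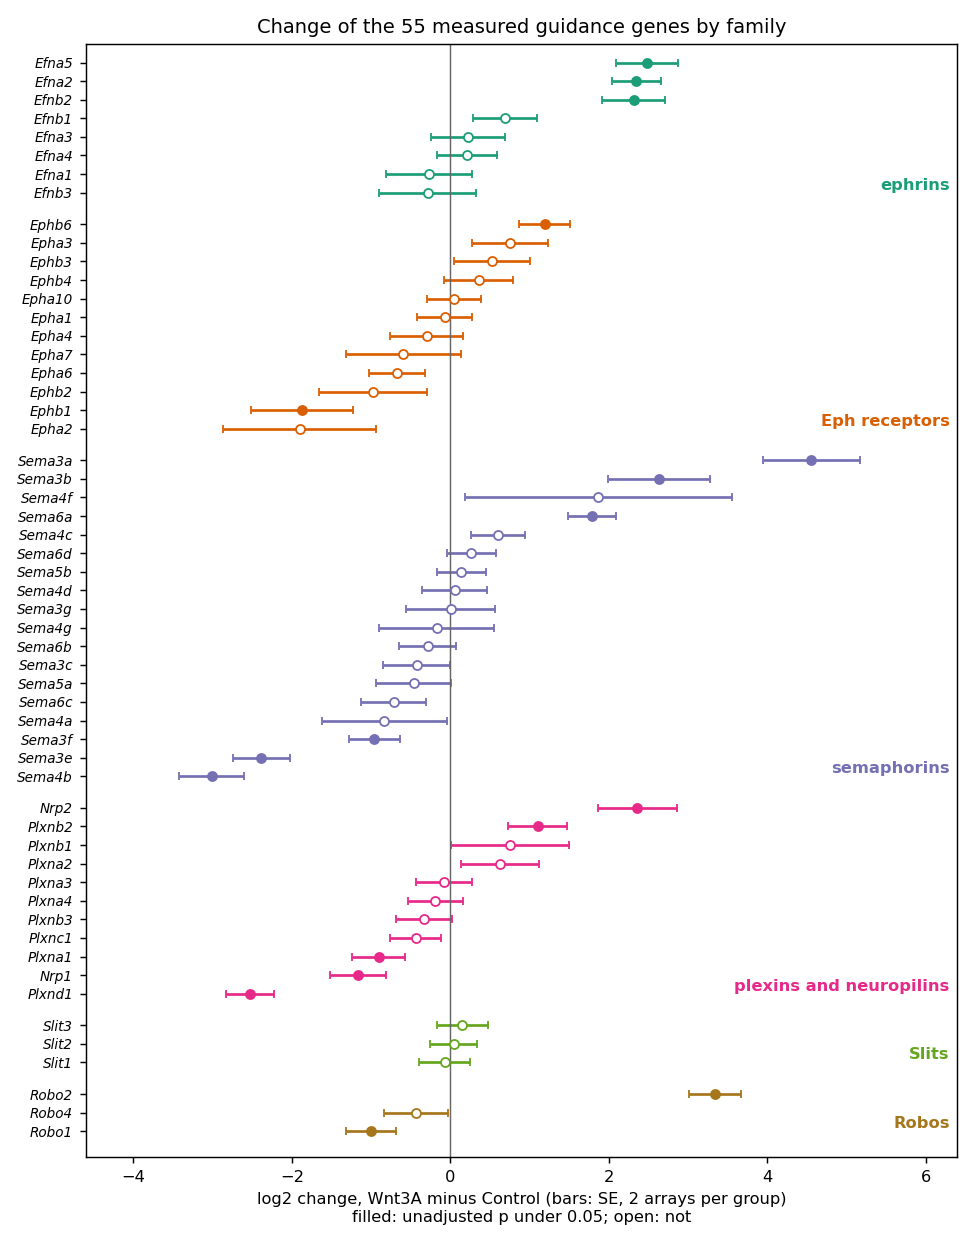
Log2 change, Wnt3A minus Control, of each of the 55 tested members by family (points, with bars of 1 SE from limma, 2 arrays per group). Filled points have an unadjusted p under 0.05: 10 lie right of 0 and 8 left of it, and the 3 Slits sit within 0.2 of 0.

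Robo2, a Slit receptor, was the member gene with the smallest p and with the most probes that passed. The probes of both Robo receptors are shown because 3 of the 4 probes that passed are among them and because they read different parts of the transcripts. Each line gives the first 30 of the 60 bases of a probe, 5′ to 3′, as the array annotation holds them, in order along chromosome 16 of build mm8.
Robo1 A_52_P30152: cttcctgctgttttaacactctgaacttta
Robo1 A_51_P174314: agctggtgacctcacgtacagactttatcg
Robo2 A_52_P290236: gttgccagtttatatgtgatttcatggaac
Robo2 A_51_P418488: caaatagtcaaggacagtttacaggtgaat
Robo2 A_52_P597791: ttgaatatgtgttaaccatccatattaaga
Robo2 A_51_P157612: caatcggtgagcaatagctggcagacagtg
Robo2 A_52_P653768: ccacaagtatggctcttctatttaaagaaa
Robo2 A_52_P295822: tctccattttcttatagacaaaatccagaa
The Robo1 probes lie on the plus strand at chr16:72886232-72886291 and chr16:72928166-72928225. The Robo2 probes lie on the minus strand between chr16:73775314-73775373 and chr16:74234741-74234800, and the probe A_51_P418488 spans chr16:73778484-73779719, more than its own length. Annotation of exons and untranslated regions on this build was not used here.

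The Robo2 probe with the brightest mean, A_51_P157612, starts at base 1683 of NM_175549. It read 1.64 and 1.20 on the Wnt3A arrays, against -1.93 and -1.91 on the Control arrays. Both Wnt3A arrays stood far above both Control arrays, and the log2 change was 3.34 ± 0.33 (SE, adjusted p = 0.0521 by limma). A second probe of the same transcript, A_52_P290236, starting at base 7659, read -2.88 and -2.93 on the Wnt3A arrays and -8.15 and -8.37 on the Control arrays. Robo2 signal in Control cells was thus below the floor for this probe, and it was at least 9.80-fold higher in Wnt3A cells. The log2 change of the values as read was 5.36 (adjusted p = 0.0279 by limma). With values under the floor raised to it, the change was 3.29 (adjusted p = 0.0476 by limma). The bound, here and for every such probe below, is set against the floor. That floor uses a factor from the scanner files, where the lowest signal flagged above background counted as detection. The factor was carried over to the table, which has no flags. A higher floor would make each bound smaller, so the bounds hold for this lenient floor only. The p-values given with them test the log2 change of the values as read, those under the floor included, and not the bound. The probe A_52_P597791 read -3.32 and -2.97 in Wnt3A and -8.27 and -7.41 in Control, at least 8.29-fold higher. Its log2 change as read was 4.70 (adjusted p = 0.0459 by limma). That call was lost under median scaling (adjusted p = 0.0511), quantile normalization (0.0623), without the filter on dim probes (0.0717) and with values under the floor raised to it (0.0591). The probe A_51_P418488 read -0.37 and -0.52 on the Wnt3A arrays and -4.51 and -6.27 on the Control arrays, a log2 change of 4.95 ± 0.67 (adjusted p = 0.0876 by limma). The weakest kept probe, A_52_P653768, read -3.99 and -5.47 in Wnt3A and -6.48 and -6.95 in Control, where both arrays were under the floor. Its log2 change as read was 1.99 (adjusted p = 0.299 by limma). With values under the floor raised to it, the change was 1.47 (adjusted p = 0.402 by limma). All 5 kept Robo2 probes were therefore higher on both Wnt3A arrays than on both Control arrays. The sixth, A_52_P295822, passed the floor on only 1 Wnt3A array, at -6.22, and was not tested.

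Robo1, the closest relative of Robo2 among the Slit receptors, read the other way. Its probe A_52_P30152, which targets the clone AK040651, read -8.02 and -8.36 on the Wnt3A arrays and -4.07 and -4.33 on the Control arrays. It was below the floor in Wnt3A cells and at least 4.22-fold lower there. Its log2 change as read was -3.99 (adjusted p = 0.0398 by limma). The call was lost with values under the floor raised to it (adjusted p = 0.119), with trend and robust settings (0.0590) and without the filter on dim probes (0.0641). With the scanner signal the log2 change of this probe was 0.35, and 1.74 without the faint file of Control replicate 1, the opposite direction. The probe A_51_P174314 for NM_019413 read -1.72 and -1.97 in Wnt3A and -0.98 and -0.71 in Control. Those groups did not overlap either, but the difference was smaller, with a log2 change of -1.0 ± 0.32 (adjusted p = 0.317 by limma). Robo4, best known from endothelial cells, had a log2 change of -0.43 ± 0.40 (adjusted p = 0.721 by limma).

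The ligands of these receptors, Slit1, Slit2 and Slit3, were all above the floor on all 4 arrays. Their log2 changes were -0.07 ± 0.32, 0.04 ± 0.30 and 0.15 ± 0.32, and the Wnt3A and Control arrays overlapped for each. The smallest adjusted p among them was 0.894 (limma), which does not show that their levels were equal.

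**Figure D3:**
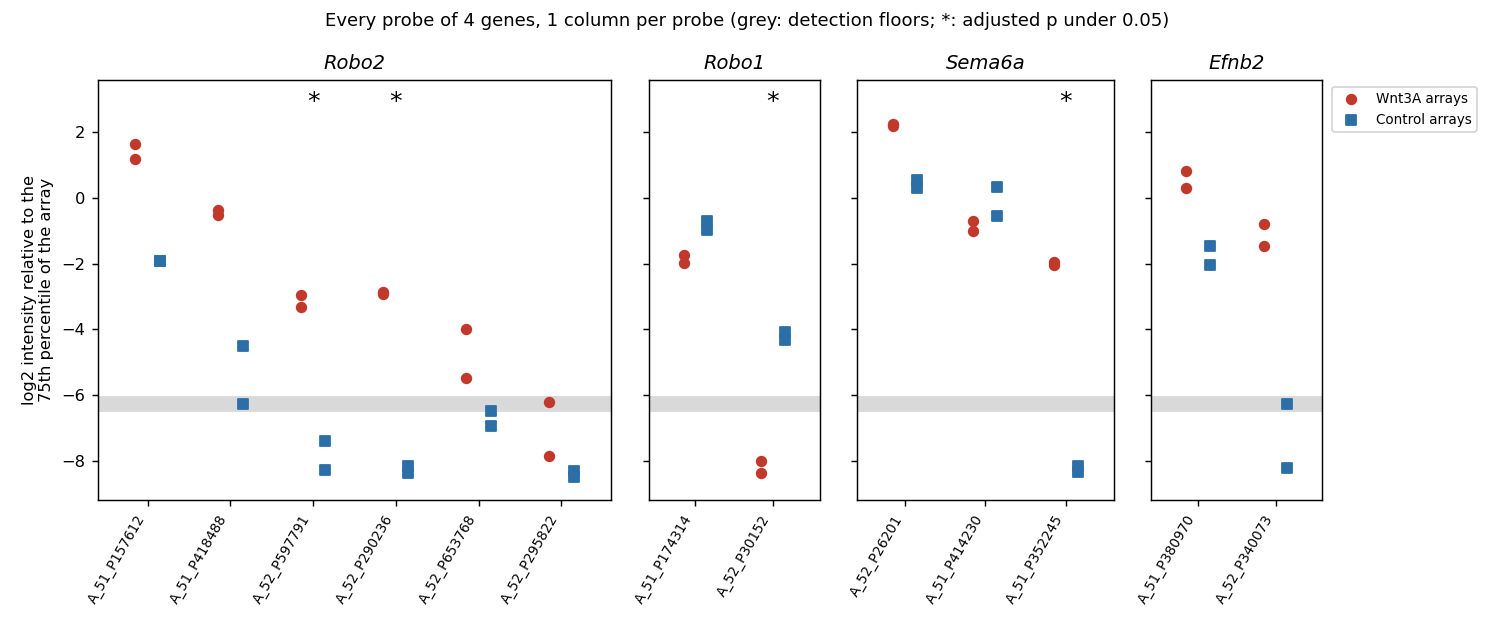
Log2 intensity relative to the 75th percentile of the array (y) for every probe of Robo2, Robo1, Sema6a and Efnb2 (1 column per probe), with Wnt3A arrays as circles and Control arrays as squares. The grey band spans the detection floors of the 4 arrays and the asterisks mark the 4 probes with an adjusted p under 0.05, all of which have 1 group below the band.

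Among the ephrins, the ligands of the Eph receptors, Efna5, Efna2 and Efnb2 had an unadjusted p under 0.05. Efna5 is anchored to the membrane by lipid and binds mainly EphA receptors, and Efnb2 is a transmembrane ligand of EphB receptors known from arterial endothelium. Each of these genes has probes at different places of the transcript, except Efna2 with 1 probe, and they are shown (first 30 of 60 bases, 5′ to 3′) because they differed in the size of the change.
Efna5 A_51_P218009: tcggaaaaattccagctcttcactcccttt
Efna5 A_51_P144319: tgtgattctagcatttgtctctaaccaatg
Efnb2 A_51_P380970: ttagagtccttgagatggaagtaagttatg
Efnb2 A_52_P340073: gtcatcggttggctacgttttggttctatg
These lie on the minus strand of build mm8, the Efna5 probes at chr17:62336320-62336379 and chr17:62290290-62290349 and the Efnb2 probes at chr8:8619194-8619253 and chr8:8618149-8618208.

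Efna5 probe A_51_P218009 read 1.32 and 0.89 on the Wnt3A arrays, against -1.67 and -1.08 on the Control arrays. The groups were well apart, and the log2 change was 2.48 ± 0.39 (adjusted p = 0.110 by limma). The second Efna5 probe read -0.14 and 0.11 in Wnt3A and -1.26 and -0.60 in Control, a smaller change of 0.92 ± 0.38 (adjusted p = 0.415 by limma). Efnb2 probe A_51_P380970 read 0.81 and 0.29 on the Wnt3A arrays and -1.47 and -2.05 on the Control arrays, a log2 change of 2.31 ± 0.40 (adjusted p = 0.130 by limma). Its second probe, A_52_P340073, which starts at base 3521 of NM_010111, read -0.78 and -1.46 in Wnt3A and -6.27 and -8.23 in Control. Neither Control array passed the floor of its own array there, so the probe was at least 33.7-fold higher in Wnt3A cells. Its log2 change as read, 6.12, did not pass (adjusted p = 0.0770 by limma).

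Efna2, another ligand of EphA receptors, was faint. Its probe read -5.95 and -6.04 on the Wnt3A arrays, just over the floor, and -8.19 and -8.50 on the Control arrays below it. The bound was therefore only at least 1.15-fold higher in Wnt3A cells. The log2 change of the values as read was 2.35 (adjusted p = 0.0850 by limma). Over the settings that keep the table it went down to 0.20. Efnb1 read -2.51 and -3.29 in Wnt3A and -3.46 and -3.73 in Control (log2 change 0.69 ± 0.41, adjusted p = 0.565 by limma). The other 4 ephrins had log2 changes between -0.29 and 0.23.

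The Eph receptors are the kinases that bind these ligands. Ephb6, a member whose kinase domain is inactive, read -4.25 and -4.61 on the Wnt3A arrays and -5.57 and -5.66 on the Control arrays, a log2 change of 1.19 ± 0.32 (adjusted p = 0.250 by limma). Ephb1 went the other way, with -2.30 and -3.13 in Wnt3A and -0.12 and -1.57 in Control (-1.87 ± 0.64, adjusted p = 0.343 by limma). These were the only Eph receptors with an unadjusted p under 0.05 for the probe that stands for the gene.

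Epha2 read -4.85 and -7.26 on the Wnt3A arrays and -4.76 and -3.55 on the Control arrays. Thus 1 Wnt3A array, whose value was under the floor, carried most of the log2 change of -1.90 ± 0.97. Epha6 read -3.24 and -2.74 in Wnt3A and -2.47 and -2.17 in Control (-0.67 ± 0.35). Ephb2 read -0.63 and -0.47 in Wnt3A and -0.47 and 1.33 in Control, a change of -0.98 ± 0.68 that rests on 1 Control array. Epha3 was measured in both directions. Its brighter probe, A_52_P220896, read -0.29 and 0.81 in Wnt3A and -0.61 and -0.39 in Control (0.76 ± 0.48). The other kept probe, A_51_P246133, read -3.71 and -4.47 in Wnt3A and -2.97 and -2.71 in Control (-1.25 ± 0.40), so no direction can be given for the gene. Adjusted p-values for these 4 genes were 0.318 or more (limma).

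Semaphorins differed in both directions. For Sema3a, a secreted repellent that binds Nrp1, the probe A_51_P163146 read -2.80 and -2.85 on the Wnt3A arrays and -8.16 and -6.61 on the Control arrays. Both Control arrays were below the floor, so the probe was at least 10.3-fold higher in Wnt3A cells. Its log2 change as read was 4.56 (adjusted p = 0.0846 by limma). The other 2 kept Sema3a probes were also higher on average, but with log2 changes of 0.95 ± 0.49 and 0.92 ± 0.81, and for the probe A_52_P679511 the groups overlapped. That probe read -4.08 and -6.28 in Wnt3A and -6.02 and -6.18 in Control. It passed the floor on 2 Control arrays and 1 Wnt3A array, so the probes differed on whether Sema3a was above the floor in Control cells. Sema3b, a secreted ligand that binds neuropilins, read -0.60 and -1.96 in Wnt3A and -4.40 and -3.43 in Control (2.63 ± 0.64, adjusted p = 0.217 by limma).

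Sema3e is a secreted semaphorin that binds Plxnd1 without a neuropilin. It read -2.56 and -2.35 on the Wnt3A arrays and -0.35 and 0.20 on the Control arrays, a log2 change of -2.38 ± 0.36 (adjusted p = 0.104 by limma). A second kept probe gave -4.79 and -4.75 in Wnt3A and -2.92 and -2.97 in Control (-1.82 ± 0.30, adjusted p = 0.118 by limma), so both probes put Sema3e lower on both Wnt3A arrays. Sema4b, a transmembrane semaphorin, read -2.72 and -3.20 in Wnt3A and 0.40 and -0.30 in Control (-3.01 ± 0.41, adjusted p = 0.0899 by limma). Sema3f, a secreted ligand of Nrp2, read -1.90 and -1.66 in Wnt3A and -0.96 and -0.68 in Control (-0.96 ± 0.32), and its second probe had a log2 change of -1.53 ± 0.44. Neither Sema3f probe passed, with adjusted p-values of 0.332 and 0.281 (limma).

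Sema6a, a transmembrane semaphorin that binds class A plexins, was read differently by its 3 probes. The brightest probe, A_52_P26201, read 2.18 and 2.24 on the Wnt3A arrays and 0.54 and 0.31 on the Control arrays (1.79 ± 0.31, adjusted p = 0.128 by limma). The probe A_51_P352245, which starts at base 6687 of the same transcript, read -2.03 and -1.96 in Wnt3A and -8.33 and -8.17 in Control. It was at least 18.4-fold higher in Wnt3A cells. Its log2 change as read, 6.26, had the smallest adjusted p of all member probes, 0.0226 (limma). In the scanner files this probe was not well above background on both arrays of either group, so it was not tested there. The third probe, A_51_P414230, designed on AF030430, read -1.0 and -0.70 in Wnt3A and 0.35 and -0.55 in Control (-0.75 ± 0.44, adjusted p = 0.562 by limma). The direction given for Sema6a thus depends on the probe.

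Sema4c, a ligand of Plxnb2, read 2.69 and 2.44 in Wnt3A and 2.17 and 1.76 in Control (0.60 ± 0.34), and its second probe had a log2 change of 1.09 ± 0.38. Sema6c read -0.21 and -0.11 in Wnt3A and 0.98 and 0.13 in Control (-0.72 ± 0.42). Their adjusted p-values, over 2 kept probes each, were 0.350 or more (limma). Sema5a and Sema6d are given here because their probes disagreed in size, and both were picked after their values were seen. Sema5a probe A_52_P465022 read -3.65 and -5.84 in Wnt3A and -0.81 and -0.11 in Control (-4.29 ± 0.84, adjusted p = 0.156 by limma), while the brighter Sema5a probe had a log2 change of -0.46 ± 0.47. Sema6d probe A_52_P413613 read -2.88 and -3.96 in Wnt3A and -5.62 and -8.36 in Control (3.57 ± 1.05, adjusted p = 0.285 by limma), while the brighter Sema6d probe had a log2 change of 0.26 ± 0.31.

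**Figure D4:**
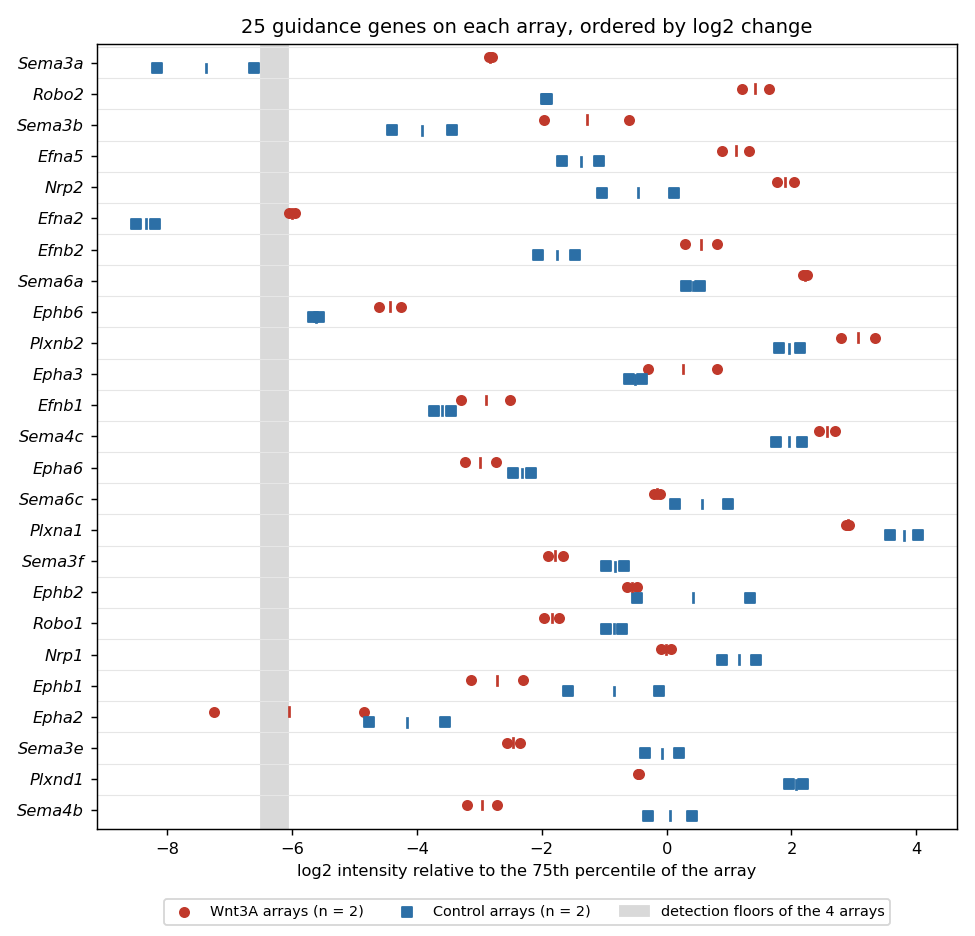
Log2 intensity relative to the 75th percentile of the array (x) for the 25 members with the smallest p (rows, ordered by log2 change), with each Wnt3A array a circle, each Control array a square and each group mean a short line. The groups overlap for Ephb2 alone among the 25 rows, and the Control arrays of Sema3a and Efna2 lie at or under the grey band of detection floors. The rows were picked by p on these same arrays, so this separation follows from the choice. Over all 55 tested members the groups did not overlap for 49.1%, beside 45.2% of all tested genes.

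Of the semaphorin receptors, Plxnd1 had the smallest p. It is a plexin known from endothelial cells and thymocytes, and the receptor of Sema3e. It read -0.45 and -0.45 on the Wnt3A arrays and 2.19 and 1.96 on the Control arrays, with replicates close together in both groups. The log2 change was -2.52 ± 0.30 (adjusted p = 0.0726 by limma), so Plxnd1 and its ligand Sema3e were both lower on both Wnt3A arrays without either passing the test. Nrp1 and Nrp2, coreceptors for class 3 semaphorins and for vascular growth factors, read in opposite directions. Nrp2 read 2.03 and 1.77 in Wnt3A and 0.12 and -1.03 in Control (2.36 ± 0.50, adjusted p = 0.177 by limma). Nrp1 read -0.09 and 0.06 in Wnt3A and 1.42 and 0.88 in Control (-1.17 ± 0.35, adjusted p = 0.297 by limma). Its 2 other kept probes also had negative log2 changes, -1.42 ± 0.38 and -2.14 ± 1.73.

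Plxnb2, a receptor of class 4 semaphorins, read 2.79 and 3.35 on the Wnt3A arrays and 1.80 and 2.13 on the Control arrays (1.1 ± 0.37, adjusted p = 0.333 by limma). Plxna1, a signalling partner of neuropilins, read 2.92 and 2.87 in Wnt3A and 4.03 and 3.58 in Control (-0.91 ± 0.33, adjusted p = 0.369 by limma). Both had a second probe in the same direction with a smaller change, 0.51 ± 0.39 for Plxnb2 and -0.64 ± 0.59 for Plxna1. The other 6 plexins had log2 changes between -0.44 and 0.76 for the probe that stands for the gene.

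Wnt signals act on target genes through TCF and LEF factors, which bind a short motif, so the promoters of the members were searched for the letters CTTTGAT on either strand (ATCAAAG on the other). A promoter window from 250 bases before to 50 bases after the gene start was found for 52 of 59 members in the RefSeq table of build GRCm38.p6. Nrp2 alone among these 52 held the motif, a share of 1.92%, beside 4.29% of 27025 genes and 3.73% of 32851 windows. The 250 bases before the Nrp2 start, on the plus strand at chr1:62703067-62703316 of GRCm38.p6, are shown 5′ to 3′ with the match in capitals.
Nrp2 promoter: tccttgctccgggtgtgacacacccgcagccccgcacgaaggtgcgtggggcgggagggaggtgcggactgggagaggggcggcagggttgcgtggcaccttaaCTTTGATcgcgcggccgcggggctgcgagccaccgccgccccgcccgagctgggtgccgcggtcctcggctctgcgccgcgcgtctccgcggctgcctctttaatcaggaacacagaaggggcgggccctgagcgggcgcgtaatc
A match is a description of these letters, and its absence from the other windows says only that the letters are not there.

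Read from the probe that stands for the gene, the 30 members outside the 25 with the smallest p, Sema5a and Sema6d among them, had log2 changes between -0.83 and 1.87. None of these probes had an unadjusted p under 0.05, unlike the second probes of Sema5a and Sema6d given above. The groups did not overlap for 3 of the 30, beside 45.2% of all tested genes. This low count follows from the choice, since the members with the smallest p had been set apart. Of the 27 members with more than 1 kept probe, 21 had all kept probes in the same direction, and 6 had probes in both. Besides Sema6a and Epha3 these were Epha4, Sema5b, Plxna3 and Plxnc1, in which the brighter probe had a log2 change of -0.30, 0.14, -0.08 and -0.44, and none of their probes passed. Epha5, Epha8, Sema3d and Sema7a had no probe above the floor on both arrays of a group and were not tested.

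Other genes of the same pathways were read from a list of 81 netrin, transducer and vascular partner genes, of which 75 were tested. Of these 1 rose and 1 fell at an adjusted p under 0.05 (limma), a threshold that 0.643% of all tested genes passed. Without the filter on dim probes neither passed. With a single array dropped no gene of the whole table passed, so that setting could not single out these partners. Evl, an actin regulator of the Ena/VASP family that acts downstream of Robo, read -1.93 and -1.75 on the Wnt3A arrays and -5.91 and -5.41 on the Control arrays (3.82 ± 0.34, adjusted p = 0.0452 by limma). L1cam, a neural adhesion molecule that forms a receptor with Nrp1 for Sema3a, read -2.05 and -2.05 in Wnt3A and 2.38 and 1.73 in Control (-4.10 ± 0.37, adjusted p = 0.0452 by limma). An unadjusted p under 0.05 was found for 6 partners in each direction, 12 of 75 in all, beside 12.7% of all tested genes. The next partners by p were Pgf, a ligand of Flt1 and neuropilins, with -1.37 and -1.37 in Wnt3A and 1.64 and 2.49 in Control (-3.44 ± 0.41, adjusted p = 0.0726 by limma), and Rap1a, a small GTPase that plexins inactivate, with a log2 change of 2.38 ± 0.40 (adjusted p = 0.125). Yes1, a kinase of the Src family, was below the floor on both Control arrays, at -8.28 and -7.73, against -5.77 and -4.95 on the Wnt3A arrays (adjusted p = 0.127 by limma). The list of netrins and their receptors held no gene that passed, and its smallest adjusted p was 0.242 (limma).

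The scanner output of the 4 samples was deposited beside the table and gave a different picture of the members. In rank, all 4 table columns were closest to the scanner file of Control replicate 2 (Spearman rho 0.826 to 0.845) and farther from the other files (0.610 to 0.762). Whether the table and the scanner files come from the same hybridisations is therefore not settled. The scanner file of Control replicate 1 was faint, with 41.8% of spots well above background, against 71.6% to 85.7% in the other 3 files. From the scanner signal no member passed, and the smallest adjusted p of a member was 0.9999 (limma). This fit gave every member the same SE, 1.42, so it holds no error estimated gene by gene. Of 51 members measured in both sources 32 had the same direction and 19 the opposite one. Each source read a gene from its own brightest tested probe, which need not be the same probe in both. Efna5 (2.33), Sema3a (1.72) and Sema4b (-1.18) kept the sign of their log2 change, while Robo2 (-0.49), Plxnd1 (1.63), Efnb2 (-0.56) and Nrp2 (-0.67) did not. With another background correction of the scanner signal (normexp) Sema3a changed sign as well. When the faint file of Control replicate 1 was dropped, Robo2 (0.13) and Efnb2 (0.92) had the sign of the table. Plxnd1 and Nrp2 still did not, and Sema3e and Robo1 then lost it. Of the 4 member probes that passed in the table, the scanner files allowed a test of the Robo1 probe only. Those of Robo2 and Sema6a were not well above background there on both arrays of either group. The same held for the Efnb2 probe A_52_P340073. The member results above are thus results of the deposited table.

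**Figure D5:**
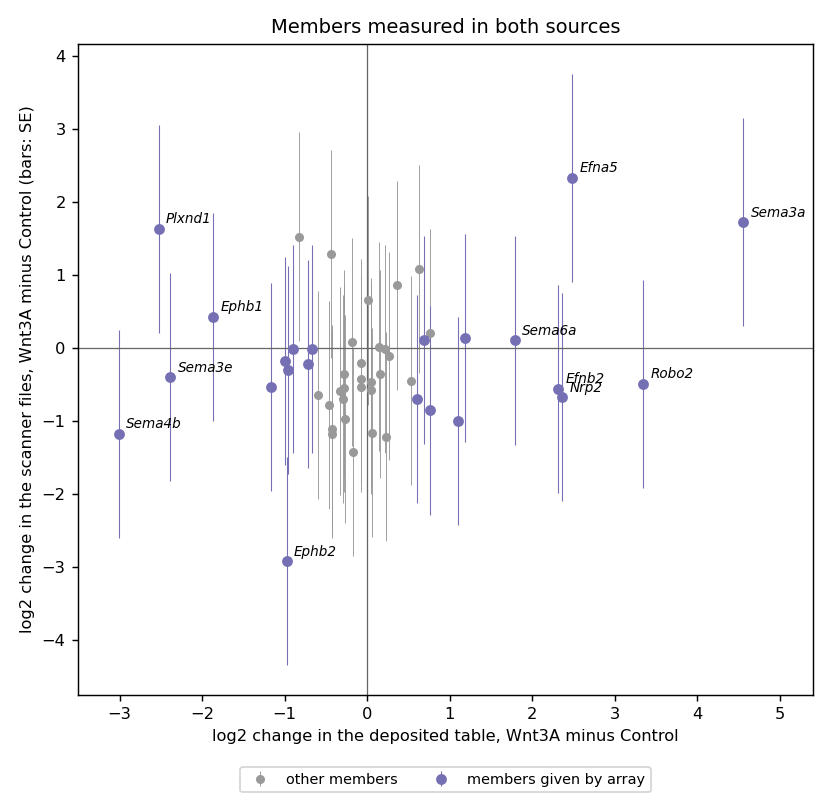
Log2 change, Wnt3A minus Control, of the 51 members measured in both sources, from the deposited table (x) and from the scanner files (y, with bars of 1 SE). The bars are wide, with the same SE of 1.42 for every member, so they are not errors estimated gene by gene. In the quadrants of opposite sign lie 19 members, Robo2 and Plxnd1 among them. A gene was read from the brightest tested probe of each source, which need not be the same probe.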

How the data were processed

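Spot intensity values were used from 2 sources. The deposited table holds 1 linear intensity per spot and sample, and every column has a median of 1, while how the authors scaled it is not given in the sources used here. The scanner files were written by Agilent Feature Extraction 10.5.1.1 per the file headers, with spot intensity columns and other columns of 0 or 1 flags as deposited. The table was the main source, because the member rule names it. Its spot numbers were joined to the spot numbers of the scanner files, and over 245 probes with repeated spots the median SD of a probe was 0.0820 to 0.101 (log2), against 3.41 to 3.51 over all spots.

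Each array was expressed in log2 relative to its 75th percentile, and spots of a probe were averaged. To set a floor, the 1st percentile of a table column was multiplied by 4.94, the median of the matching factors in the scanner files (4.85 to 4.99). The 33709 probes that passed it on both arrays of either group were kept. They were all fitted with limma 3.58.1 (R 4.3.3, lmFit then eBayes, two-sided; 2 residual and 2.29 prior degrees of freedom), and p-values were adjusted by Benjamini-Hochberg with a threshold of 0.05. No exact test of 2 against 2 arrays can go below 0.333. A gene was read from its kept probe with the highest mean. A level under the floor in a whole group gives a bound against the floor. The fit was tested on simulated data.

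Probe names came from the transcript accession for 77 member probes and from the symbol in the file for 33. One probe that reached a member only through an older synonym lay on another chromosome and was left out. Probe positions are on build mm8 per the array annotation, and the promoter windows are from RefSeq on GRCm38.p6. The members, lists and settings were chosen with earlier results of these data known. Members given by array are the 25 with the smallest unadjusted p. Partner genes given are those that passed and the 5 with the smallest p. The alternatives tried were the scanner signals, other scalings, filters, floors, probe rules and variance models, a replicate block, and each array left out. All 4 scanner files carry 1 slide, so slide was not used as a block. Numbers of replicates did not pair the samples.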

Additional observations from a re-analysis of the deposited data

How the results depend on the processing

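Over the settings that keep the deposited table, the 25 members given by array kept their direction except Epha3, which was -0.25 with the mean of the kept probes. The count of member genes past the threshold, 0 of 55, was 1 with the floor 2 times as high (Robo2), 2 with it 4 times as high (Robo2 and Plxnd1), 1 with values under the floor raised to it (Sema3a), 1 when kept probes were averaged (Robo2) and 2 with trend and robust settings (Robo2 and Plxnd1). The 4 member probes that passed were 2 without a filter and 0 when every array had to pass the floor, a rule that drops those 4 by construction. The 2 partner genes were 1 with quantile normalization and 0 without a filter or with the filter on all 4 arrays. The 147 genes of the whole table were 35 without a filter, 34 with the filter on all 4 arrays, 251 with the floor 4 times as high, 226 when kept probes were averaged and 233 with trend and robust settings. Leaving out any 1 of the 4 arrays gave 0 for each of these counts, where the lone array of a group is taken to vary like the other group, and Robo2 then had an adjusted p of 0.186 to 0.214. The median change of the members lay between -0.11 and 0.22 when an array was left out, so its sign is not fixed.

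The replicate numbers did not pair the samples (correlation of same-numbered deviations 0.0124). With the replicate block 0 member genes, 0 member probes, 0 partner genes and 0 of all genes passed.

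Of the 4 member probes that passed in the table, only that of Robo1 could be tested with the scanner signal. With the scanner processed signal 0 member genes, 0 member probes, 0 partner genes and 2 of all genes passed. With normexp on the scanner signal, and with the scanner signal without Control replicate 1 (an alternative chosen after seeing the data), all of these counts were 0. Log2 changes that reversed with the processed signal were Robo2 -0.49, Plxnd1 1.63, Efnb2 -0.56, Nrp2 -0.67, Plxnb2 -1.0, Ephb1 0.43, Sema4c -0.70 and Epha3 -0.86. With normexp they were Robo2 -0.43, Plxnd1 1.90, Sema3a -0.28, Efnb2 -0.058, Nrp2 -1.13, Ephb6 -0.85, Plxnb2 -0.39, Ephb1 0.53, Plxna1 0.11, Sema4c -0.038, Efnb1 -0.38 and Epha3 -0.45. Without Control replicate 1 they were Plxnd1 2.01, Sema3e 0.16, Nrp2 -0.31, Robo1 0.29, Ephb1 1.09, Plxna1 0.16, Epha6 0.054, Sema4c -0.011 and Epha3 -0.20. The cause was not tested. The table has no flags, so saturation and detection could not be checked there, and the slide as a block was not run because all 4 scanner files carry 1 slide.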
